A study of Caenorhabditis elegans with 8 samples.

Results

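Fragments of 80 to 130 nt were compared between paired-end libraries of endo-cleaved oocyte DNA that had been cut from overlapping size ranges of a gel, one of 40 to 130 nt (the shorter library) and one of 80 to 230 nt (the longer library). A fragment was kept when its length, the distance between its mapped ends, was from 80 to 130 nt, the range that both size selections cover. The shorter library gave 2558524 of its 7963474 fragments (32.1%) and the longer library 10748102 of its 15509078 (69.3%). Counted once for each pair of ends, these are 2507972 and 10156274 distinct fragments, 12664246 of the 106748079 entries deposited for the 8 libraries of the series.

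All 8 libraries come from oocytes of fer-1(b232) worms grown at the restrictive temperature, a mutant whose sperm do not fertilize, and 7 of them hold DNA cut by a nuclease of the oocytes themselves, with no enzyme added. The remaining library holds core DNA of nucleosomes released by micrococcal nuclease (MNase). The sample labels give 50 to 130 bp for the library that the study's text gives as 40 to 130 nt. There is 1 library for each condition, and whether the 2 libraries compared here came from the same oocyte preparation is not given in the sources used here, so no test between preparations was possible. Intervals of 95% below cover counting error alone, and amplified copies of a molecule are not independent. The range over the 6 nuclear chromosomes is given as a description of the spread along the genome.

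DNA that lies on a protein surface, as on the histone octamer of a nucleosome, shows the same face outward at each turn of the double helix, and a nuclease that reaches only the outward face leaves a ladder of fragments spaced by a helical turn. Blunting by a polymerase before linker ligation removes 3′ overhangs, so that between neighbouring fragments the mapped 5′ ends are separated by as many bases as the cuts on opposite strands were staggered. The same cut recovered in another library is not a copy made while the first was amplified, unless material was carried over between them, which was not tested.

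The chosen range takes different parts of each library's distribution. Below 80 nt lay 67.6% of the shorter library and above 130 nt 0.257%. Of the longer library 10.24% lay below and 20.5% above. At the lower limit the shorter library had 281017 fragments of 79 nt, just outside, and 164333 of 80 nt, just inside. The longer library had 819555 and 593674 at the same sizes, so the limit falls on the flank of a size peak in both. At the upper limit the shorter library had 7003 fragments of 130 nt and 4890 of 131 nt, while the longer library had 94558 and 99854. Repeat copies of a fragment already counted made up 1.98% of the set from the shorter library and 5.51% of that from the longer library. The chromosomes contributed nearly equally to both sets, with 4.18 fragments of the longer library for each of the shorter library on chromosome I, 4.22 on chromosome X and 4.20 over the genome.

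The first question was whether fragments of the same length range have the same preferred sizes in both libraries. The shorter library had size peaks at 90, 100, 110 and 120 nt. The longer library had them at 90, 99, 111 and 120 nt. The peak at 90 nt and the peak at 120 nt were at the same size on each of the 6 chromosomes in both libraries. The peak near 100 nt was at 99 or 100 nt over the chromosomes in both libraries, and the one near 110 nt was at 110 nt on all chromosomes of the shorter library and at 110 or 111 nt in the longer library. The places of the peaks thus differed between the libraries by at most 1 nt. The troughs between the peaks were at 84, 95, 105 and 116 nt in the shorter library and at 84, 94, 105, 116 and 127 nt in the longer library.

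The depth of the ladder was also close at the shorter sizes. At 90 nt the shorter library had 173942 fragments, 5.30 times the mean of the troughs on either side (5.13 to 5.37 over the chromosomes). The longer library had 716598 fragments at 90 nt, 5.68 times its troughs (5.63 to 5.72). The second peak was 3.86 times its troughs in the shorter library and 4.02 times in the longer library, and the third 2.78 and 2.69 times. At 120 nt the ratio was 1.84 (1.77 to 1.95) against 2.22 (2.11 to 2.28), where the shorter library has no trough beyond the peak, its numbers falling up to 130 nt. Fragments within 1 nt of 90, 100, 110 or 120 nt made up 40.8% of the set from the shorter library and 40.5% of that from the longer library, and the median sizes were 98 and 99 nt.

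**Figure D1:**
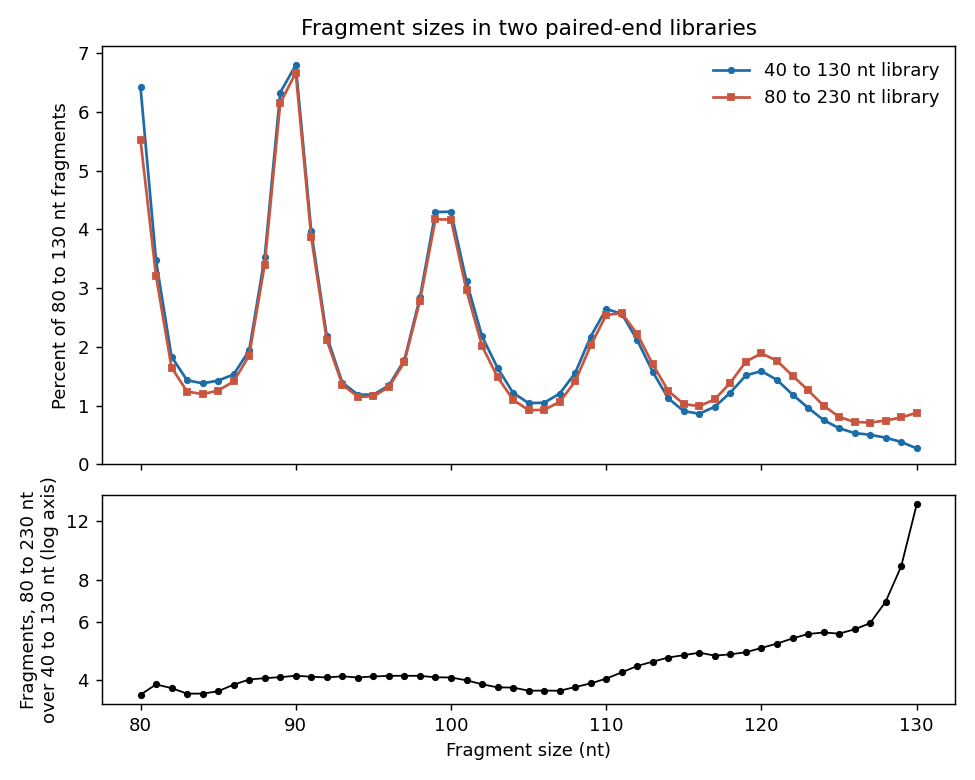
Upper panel: the share of each library's 80 to 130 nt fragments (percent, vertical axis) at each fragment size (nt, horizontal axis), with circles for the shorter library and squares for the longer library. Lower panel: the number of fragments in the longer library divided by that in the shorter library at each size, on a log axis; the curves share their peaks at 90 and 120 nt, and the ratio stays between 4.07 and 4.12 from 90 to 100 nt and reaches 13.5 at 130 nt.

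Divided by a smoothed baseline, the size histograms of the libraries had a Pearson's r of 0.955 over the 51 sizes and of 0.995 over the middle 41 sizes, from 85 nt on, a description of curves whose neighbouring sizes are not independent. From 90 to 100 nt, from a peak through a trough to the next peak, the number of fragments varied 5.73-fold in the shorter library and 5.79-fold in the longer library. The ratio between the libraries varied over the same sizes from 4.07 to 4.12, or 1.01-fold. Between 100 and 110 nt the ratio dipped to 3.72, at 107 nt, and it then rose from 4.04 at 110 nt to 5.00 at 120 nt and 13.5 at 130 nt. The histograms thus parted most at the long sizes, near the upper limit of the shorter library. A sinusoid fitted to the divided histogram gave periods of 10.6 nt for the shorter and 10.5 nt for the longer library, with amplitudes of 55.4% (53.8 to 56.4 over the chromosomes) against 61.5% (60.3 to 62.2). The fitted period is longer than the mean distance between the peaks, which was 10 nt in both, and with the fit kept to the middle 41 sizes the periods were 10.37 and 10.40 nt.

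The next comparison asked how many fragments were cut at the same bases at both ends in the 2 libraries. Exactly 82220 distinct fragments had the same chromosome, start and end in both (95% Poisson interval 81659 to 82784). They were 3.28% of the distinct fragments of the shorter library (95% Wilson interval 3.26 to 3.30%) and 0.810% of those of the longer library (0.804 to 0.815%), whose set is larger. With the longer library thinned size by size to the numbers of the shorter library, which was kept whole, the shares were 0.902 and 0.898%. The values above thus depend on the depth of the library searched. Per chromosome the share of the shorter library, as deposited, was lowest on X, at 3.10%, and highest on I, at 3.43%.

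For a measure that keeps size and local coverage, pairs of fragments of equal size, one from each library, were counted by the offset between their starts. At an offset of 0 the number of pairs was 9.68 times the mean of 8496 pairs at offsets of 40 to 60 nt on either side (9.61 to 9.74, counting error; 9.14 on chromosome V to 10.2 on chromosome I). One base to either side the numbers were 15321 and 15213, so that exact coincidence was 5.39 times as frequent as a shift by 1 nt. At a shift of 10 nt, about a helical turn, they were 17502 and 17584, and at 5 nt, on the far side of the helix, they were 4869 and 4814. Pairs of same-size fragments were thus more frequent at a shift of a whole turn than at a shift of 1 nt, and least frequent between turns.

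**Figure D2:**
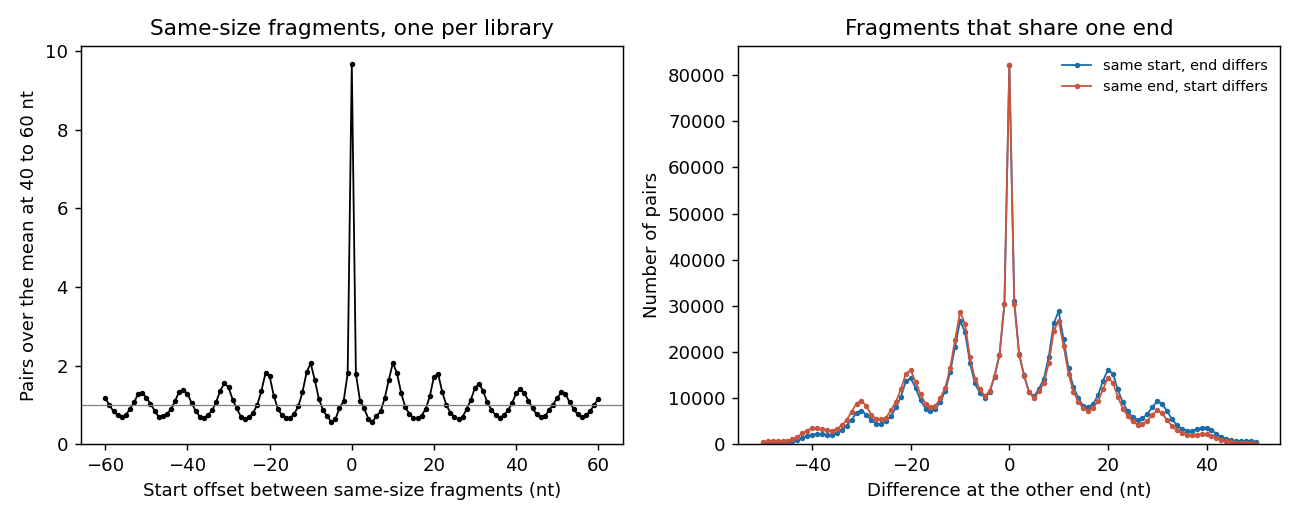
Left: pairs of fragments of equal size, one from each library, by the offset between their starts (nt), divided by the mean at offsets of 40 to 60 nt; the value at 0 is 9.68 and crests recur about every 10 nt. Right: pairs of fragments that share their start (blue) or their end (red), by the difference in nt at the other end; the vertical axis is the number of pairs, the center holds the 82220 identical fragments and side crests lie at 10 and 20 nt.

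Shared fragments were concentrated at the peak sizes. At sizes within 1 nt of 90, 100, 110 or 120 nt, 4.67% of the distinct fragments of the shorter library were also in the longer library (4.63 to 4.71%), against 0.955% at the 15 sizes within 1 nt of the troughs of the longer library (0.925 to 0.986%). These 12 peak sizes held 57.9% of the shared fragments and 40.7% of the distinct fragments of the shorter library. The single size with most shared fragments was 90 nt, with 11693 or 6.89%, whereas at 94 nt there were 258 or 0.861%. Both libraries hold more fragments at the peak sizes. Divided by the background of same-size pairs, the value at offset 0 was 9.95 at the peak sizes and 7.09 at the trough sizes.

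Fragments that share only one end also had a crest at 10 nt, but here a difference of 1 nt was more frequent than one of 10 nt. Among pairs with the same start, 82220 also had the same end, 30342 ended 1 nt earlier and 31000 ended 1 nt later in the longer library. At 10 nt the numbers were 26685 and 28813. Identical ends were 2.68 times as frequent as ends 1 nt away and 2.96 times as frequent as ends 10 nt away. With the end shared and the start free, the ratios were 2.71 and 2.97, so the left and right sides of the fragments gave nearly the same values.

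Fragments with several copies were in the other library more often. In the shorter library 3.19% of the 2459544 fragments with 1 copy were also in the longer library. The share was 6.91% with 2 copies, 23.9% with 3 (21.6 to 26.4%), 68.1% with 4 (58.0 to 76.8%) and 88.8% with 5 or more (103 of 116; 81.8 to 93.3%). In the other direction 0.745% of the fragments with 1 copy in the longer library were in the shorter library, and 48.2% of those with 5 or more copies (490 of 1017; 45.1 to 51.3%). Most of the fragments with 4 or more copies in the shorter library were thus recovered in the longer one, but these were few, 91 with 4 copies and 116 with 5 or more. Of the fragments with at least 4 copies in both libraries, 41.6% lay in 1 window of high coverage on chromosome I and 29.6% in 1 on chromosome V. No value without these windows is given.

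Other pairs of paired-end libraries gave values of the same size. For fragments of 60 to 79 nt, which the same 2 libraries also share although they lie below the lower limit of the longer one, the value at offset 0 was 10.4 times the background (10.2 to 10.5). It was 10.1 for the 20 to 80 nt against the shorter library at 45 to 79 nt, and 9.09 for the 80 to 230 nt against the 130 to 430 nt library at 131 to 180 nt. For 80 to 130 nt fragments in the 130 to 430 nt library, which lie below its size selection, it was 10.3 against the longer library and 10.9 (10.5 to 11.4) against the shorter library.

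The most repeated shared fragments lay in few windows. Ranked by the lower of its copy numbers in the libraries, the first fragment was 102 nt long and ran from base 933547 to base 933648 of chromosome I in the lists' own coordinates. It had 30 copies in the shorter library and 33 in the longer library. A fragment with the same start that ended at base 933649 had 25 and 103 copies, one that ended at base 933647 had 25 and 31 copies, and one that ended at base 933651 had 19 and 54. The fifth fragment, of 80 nt, ran from base 17118145 to base 17118224 of chromosome V and had 20 and 60 copies. All fragments with at least 4 copies in both libraries lay in 15 windows of 1 kb, with 52 (41.6%) in the window from base 933001 of chromosome I and 37 (29.6%) in that from base 17118001 of chromosome V. Of these fragments 9 (7.2%), of 97 to 106 nt, had the start at base 933547 of chromosome I. The genome build of the lists is not given in the sources used here, and the genes at these places were not analysed here.

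Single ends were compared next, as pairs of same-strand 5′ ends with one end from each library. At distance 0 the number of pairs was 3.77 times the mean at 40 to 60 nt, against 1.72 times at 1 nt, 0.945 times at 5 nt and 1.66 times at 10 nt. The plus strand gave 3.83 and the minus strand 3.72. Chromosome II had the lowest value at 0, 3.38, and chromosome I the highest, 5.72. Without 16 windows of 1 kb that held over 5 times the median of either library, chromosome I fell to 3.42, and the chromosomes then ranged from 3.25 on X to 3.44 on III. The value for the genome without these windows was 3.37, and it was 2.88 without every fragment found in both libraries.

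The same comparison with other libraries set the scale. Against the single-end library of 90 to 140 nt endo-cleaved DNA, the value at distance 0 was 3.13 for the shorter library and 3.10 for the longer library. Ends of the 40 to 79 nt fragments of the shorter library, which differ in length from the fragments they were set against, gave 2.93 with the 80 to 130 nt fragments of the longer library. Ends made by MNase gave 0.920 and 0.907 at distance 0, below the background. Of the 4814382 end positions of the shorter library, 25.9% also held an end of the longer library, against 13.5% of the positions 1 nt further on, 7.82% at 5 nt, 14.2% at 10 nt and 9.83% at 40 to 60 nt. Conversely 7.09% of the 17557670 end positions of the longer library held an end of the shorter library, against 2.70% at 40 to 60 nt.

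The distances between ends of different libraries were periodic over several helical turns. Away from distance 0 and its direct neighbours, same-strand pairs had their first maximum at 10 nt, and further maxima followed at 21, 31 and 41 nt, at 82, 93 and 103 nt, and as far as 192 nt. To measure this, a sinusoid with a period near 10 nt was fitted over a smooth baseline, and its amplitude divided by the mean number of pairs is called the periodic share. Between the libraries it was 20.6% up to 100 nt, 5.81% from there to 200 nt, 2.03% to 300 nt, 0.668% to 400 nt and 0.326% to 500 nt. The same fit at shorter and longer periods, near 7 and 14 nt, gave at most 3.02, 1.26, 0.336, 0.106 and 0.0472%. Without the 16 windows over 5 times the median of either library, the periodic share was 20.66% up to 100 nt. It was then 5.125% from there to 200 nt and 1.632% to 300 nt.

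Pairs within each library had nearly the same periodic share as pairs between them. Within the shorter library it was 20.1, 5.84 and 2.12% over the first 3 ranges of distance, and within the longer library 20.9, 5.78 and 2.04%. The differences from the values between libraries were smaller than the range over the chromosomes. Up to 100 nt that range was 18.7% on X to 22.1% on III for pairs between libraries. Between 100 and 200 nt it was 4.17% on X to 7.53% on V, and between 200 and 300 nt 1.36% on X to 3.27% on V. The place of chromosome V at the top rested on 3 windows. Without windows over 5 times the median, V had 4.64% between 100 and 200 nt and 1.47% between 200 and 300 nt, III had 6.22 and 2.11%, and X 4.18 and 1.36%.

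**Figure D3:**
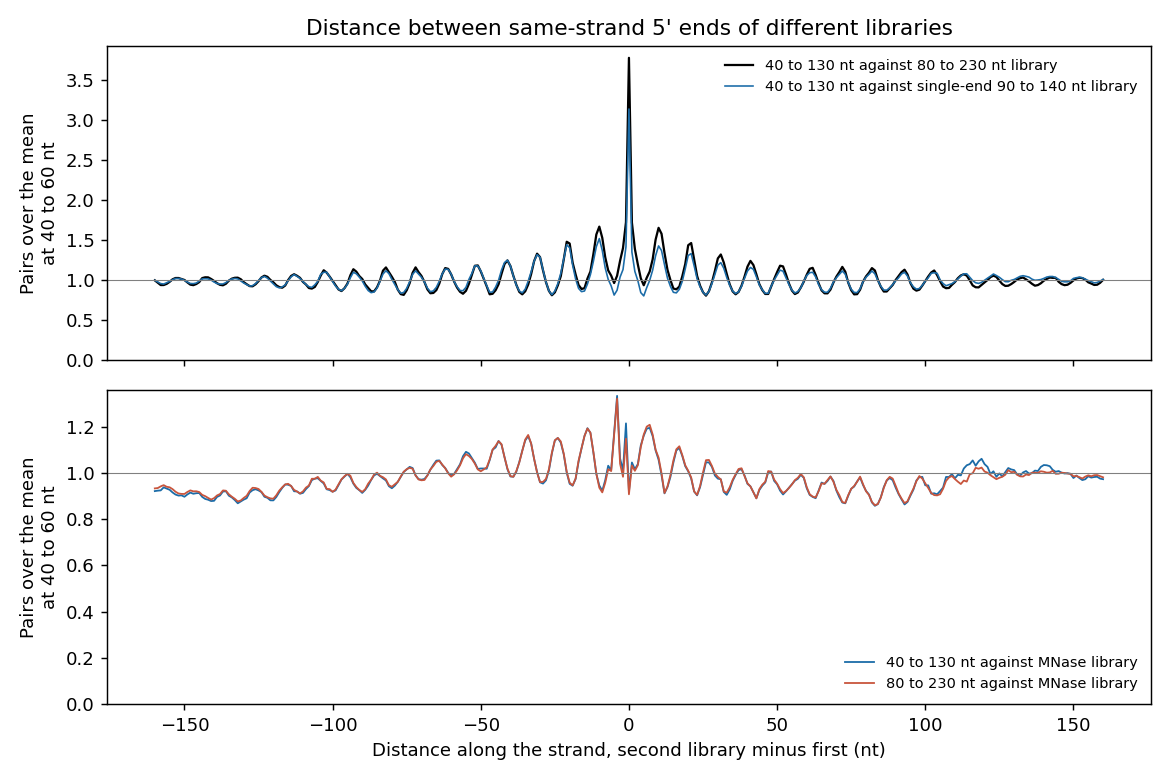
Pairs of same-strand 5′ ends, one from each of 2 libraries, divided by the mean at 40 to 60 nt (vertical axes), by distance along the strand in nt, positive where the end of the second library lies downstream (horizontal axis). Upper panel: the shorter library against the longer library (black, 3.77 at distance 0) and against the single-end 90 to 140 nt library (blue, 3.13). Lower panel: both paired-end libraries against the MNase library, with crests at -4, -14 and 7 nt, a narrow maximum at -1 nt and values of 0.920 and 0.907 at distance 0.

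Set against the single-end 90 to 140 nt library, ends of the shorter library had periodic shares of 18.1, 4.43 and 1.45% over the same ranges. Against the MNase library the pattern was shifted. Pairs were most frequent where the MNase end lay 4 nt upstream of the endo-cleaved end, 1.33 times the background for the shorter library and 1.32 times for the longer library. Further upstream there was a crest at 14 nt, with 1.19 times the background in both. Nearer to the endo-cleaved end a narrow maximum lay 1 nt upstream, with 1.21 and 1.15 times. Downstream a small one lay at 1 nt, with 1.045 and 1.03 times, and a broader crest at 7 nt, with 1.195 and 1.21 times. Since the crests were not symmetric about 0, the fit was made on each side alone. Up to 100 nt it gave 6.68% upstream and 6.31% downstream for the shorter library and 6.64 and 6.43% for the longer library. Between the endo-cleaved libraries the sides gave 20.6 and 20.7%. MNase ends thus had crests at the same offsets from the endo-cleaved ends in both libraries, with a smaller periodic share.

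Facing ends, a plus-strand end of one library and a minus-strand end of the other downstream, were counted by their distance, which is the length a fragment cut at both would have. Within the range of 80 to 130 nt the numbers of pairs had maxima at 80, 90, 100, 110, 120 and 130 nt, close to the size peaks of the fragments. The maximum at 90 nt held 1267200 pairs, 1.98 times the adjoining troughs, and that at 120 nt 1.53 times. Pairs made by identical fragments were 0.590% of the pairs at 80 to 130 nt, and without them the ratios were 1.93 and 1.52. Fragments that share only one end still give pairs at a fragment's length. The maxima at 80 to 130 nt are therefore not independent of the size peaks. The maxima continued past the longest fragment kept, at 140, 151, 160, 171, 181, 191 and 200 nt, with a ratio of 1.14 at 200 nt. The mean spacing of the 13 maxima from 80 to 200 nt was 10 nt.

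With fragment size held the same, the most frequent gap between ends of opposite strands was also the same in both libraries. All pairs of a minus-strand end and a plus-strand end within 40 nt were counted by the gap between them, not only nearest neighbours. The most frequent gap from 1 to 6 nt was 4 nt within the shorter library, 1.28 times the median over gaps within 40 nt (1.21 to 1.32 over the chromosomes). It was 4 nt within the longer library, with 1.32 times the median (1.28 to 1.36). With the minus-strand end from one library and the plus-strand end from the other, it was 4 nt again, with 1.31 and 1.30 times the median, and all 6 chromosomes had 4 nt in each of the 4 combinations. The advantage of 4 nt over 3 nt was small, 1.04-fold in each set, and the crest was broad. Gaps of 2, 3, 4 and 5 nt had 1.18, 1.27, 1.32 and 1.22 times the median within the longer library. Within the shorter library they had 1.185, 1.24, 1.28 and 1.19 times. Since all pairs were counted, the most frequent gap is not a measure of the stagger between cuts, which was not tested. In the study a gel of blunted, end-labeled oocyte DNA gave a shorter stagger than this gap. Further crests were at 14 and 24 nt, and overlapping ends had a crest at a gap of -7 nt, where fragments overlap by 7 nt, with 1.35 and 1.36 times the median.

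**Figure D4:**
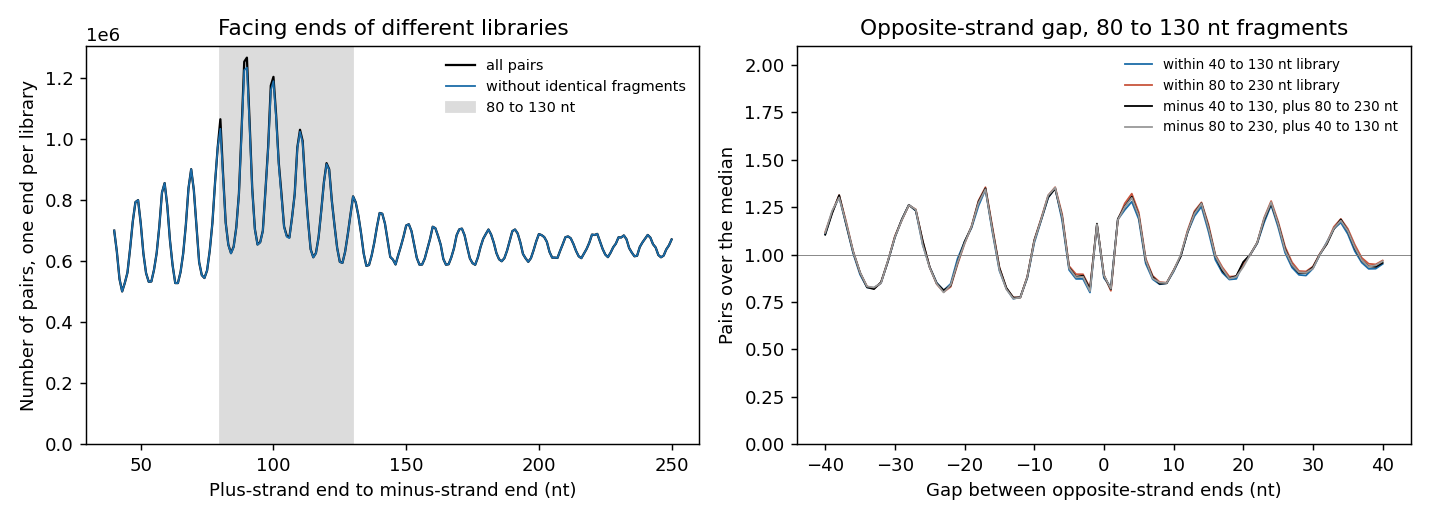
Left: number of pairs of a plus-strand end in one library and a minus-strand end in the other, by the distance between them in nt, for all pairs (black) and without identical fragments (blue), with the 80 to 130 nt range shaded; maxima lie at 80, 90, 100, 110, 120 and 130 nt and go on beyond the range. Right: pairs of opposite-strand ends of 80 to 130 nt fragments divided by the median, by the gap between them in nt (negative where fragments overlap), within and between the libraries; the curves nearly overlie each other, with crests at 4, 14 and 24 nt.

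The gap differed with fragment size inside each library. Fragments of 40 to 79 nt of the shorter library had the most frequent gap at 3 nt, 1.42 times the median, and the number of pairs at 4 nt was 0.972 times that at 3 nt (0.922 to 1.06 over the chromosomes). At 80 to 130 nt the ratio was 1.04 (1.02 to 1.06). Counted once each, the fragments gave 0.941 (0.923 to 0.950) and 1.03 (1.02 to 1.04), so that the ranges over the chromosomes no longer met. In the longer library fragments of 60 to 79 nt gave a most frequent gap of 3 nt and a ratio of 0.883 (0.851 to 0.937) when counted once, those of 80 to 130 nt 1.03 (1.03 to 1.04) and those of 131 to 200 nt 1.12 (1.09 to 1.13). With every copy counted, the ratio at 60 to 79 nt of the longer library was 0.937 (0.850 to 1.09). Taken over the genome, both libraries thus had more pairs at 3 nt below 80 nt and more at 4 nt above it in these wide classes. In classes of 10 nt the exceptions were 50 to 59 nt, with 4 nt and a ratio of 1.04, and 100 to 109 nt, with 3 nt and a ratio of 0.974, both in the shorter library with every copy counted.

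Coverage along the chromosomes was compared in 98997 windows of 1 kb by fragment midpoints. The median window held 26 fragments of the shorter library and 110 of the longer library. Spearman's rho between the libraries was 0.718 over all windows, 0.928 over 10005 windows of 10 kb and 0.984 over 1005 windows of 100 kb, as a description, since the windows share base composition and mappability and neighbours are not independent. With the longer library thinned size by size to the numbers of the shorter library, rho in windows of 1 kb was 0.6085. With the MNase library rho was 0.425 for the shorter library and 0.483 for the longer library in windows of 1 kb, and it did not rise with window size: it was 0.327 and 0.339 at 10 kb and 0.358 and 0.366 at 100 kb. No MNase value at equal depth is given, so the shorter and longer library cannot be ranked by these values. By chromosome rho between the libraries was 0.774 on III, 0.761 on I, 0.738 on IV, 0.734 on II, 0.692 on V and 0.584 on X. Coverage also varied least on X, where the coefficient of variation between windows was 23.6% in the longer library, against 32.7% on III.

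The share of fragments that came from the longer library varied between windows little more than counting allows. Over the genome this share was 80.8%. In the 95924 windows with at least 50 fragments its median was 80.9%, with 74.8% at the 5th and 86.5% at the 95th percentile. The spread was 1.08 times that of binomial counting in 1-kb windows, 1.17 times in 10-kb windows and 1.28 times in 100-kb windows. Windows past 2-fold above the genome ratio numbered 690 (0.719%) and those past 2-fold below it 116 (0.121%). The numbers that counting error alone would give are not given here, so these windows are not shown to differ between the libraries. A further 233 windows with 1036 fragments held fragments of the longer library alone, and 74 windows with 198 fragments of the shorter library alone.

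To set library against size, each set was divided in the middle of its size range, at 105 nt, and the 4 resulting sets were thinned to 799802 fragments. The same size class in different libraries gave a rho of 0.351 for the sizes below 105 nt and 0.388 for those of 105 to 130 nt. Different size classes of the same library gave 0.360 in the shorter library and 0.344 in the longer library. Pairs that differed in both gave 0.353 and 0.345. The value for the longer class between libraries was the highest of the 6, and the other 5 lay within 0.344 to 0.360.

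**Figure D5:**
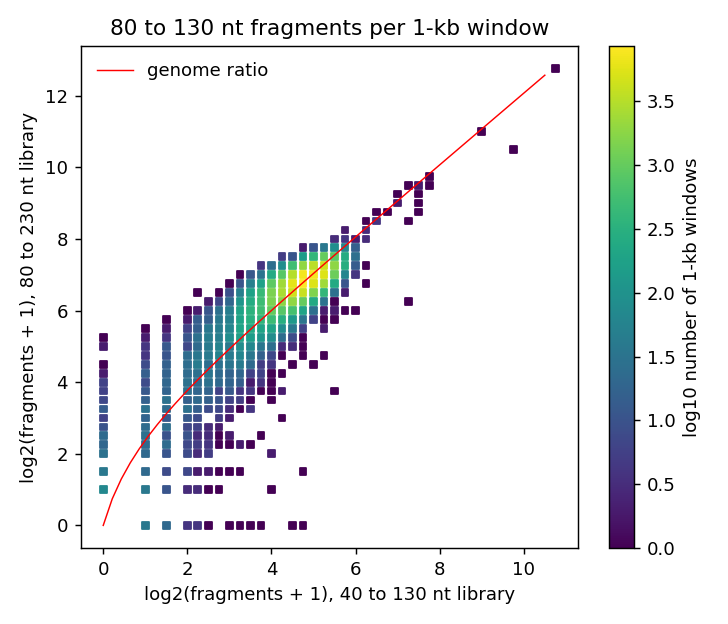
Windows of 1 kb by the log2 of 1 plus their number of 80 to 130 nt fragments in the shorter library (horizontal axis) and in the longer library (vertical axis), colored by the log10 number of windows in each cell. The red line marks the genome ratio of 4.20; most windows lie along it, and the few windows above 8 on the vertical axis are those with the highest coverage.

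A few windows were far above the median in both libraries. The window from base 17118001 to base 17119000 of chromosome V held 1687 fragments of the shorter library and 6753 of the longer library, 64.9 and 61.4 times the medians. Its share from the longer library, 80.0% (79.2 to 80.9%), was close to that of the genome. The window starting at base 17115001 of V, with 501 and 1889 fragments, had 79.04% (77.4 to 80.6%). The windows starting at base 13780001 of III (197 and 805 fragments) and base 2007001 of II (176 and 733) had 80.3 and 80.6%. In contrast, the window starting at base 933001 of chromosome I, which holds the most repeated fragments, had 841 and 1557 fragments and a share of 64.9% (63.0 to 66.8%). These were 261 and 355 distinct fragments, so copies made up most of its count.

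The lowest share was in the window starting at base 6674001 of chromosome IV, with 47 fragments of the shorter library and 13 of the longer library (21.7%, 13.1 to 33.6%). These were 45 and 11 distinct fragments, so repeat copies made up little of either count. The second lowest, starting at base 293001 of chromosome X, held 164 and 81 fragments (33.1%, 27.5 to 39.2%), of which 86 and 50 were distinct, and 1 fragment had 28 copies in the shorter library. The next were 43.4% on II, 44.3% on V and 48.9% on V, in windows starting at bases 4642001, 1638001 and 5284001. The highest share was 96.4% (87.7 to 99.0%) in the window starting at base 14485001 of I, with 2 and 53 fragments. The other 4 of the 5 highest, on I, III, I and II, had 3 or 4 fragments of the shorter library and shares of 94.6 to 95.7%. The windows of this paragraph were picked as extremes of the share among 95924 windows. Their intervals do not take that choice into account.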

How the data were processed

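The authors size-selected oocyte DNA on an agarose gel, blunted it, ligated linkers, amplified it and sequenced 25 nt from each end; both reads had to match a unique place of the reference perfectly. Bowtie 0.12.7 is named in the submitters' processing notes, and the genome build and any removal of copies are not given in the sources used here. The deposited paired-end lists give each fragment's ends with a whole-number count, not normalized. The single-end lists give a position, strand and number of tags. The single-end libraries of 40 to 90 and 140 to 240 nt were not used.

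Fragment size was the end coordinate minus the start, and coordinates are printed counting from 1. Pairs of ends were weighted by the product of their counts, as the study did; shared fragments were counted once. A sinusoid of 9.5 to 11.5 nt was fitted to each size histogram over its Gaussian smooth (SD of 6 nt). The periodic share used periods of 9.8 to 10.7 nt, and 7.0 to 7.6 and 13.0 to 14.5 nt for comparison, over a quadratic baseline, at distances of 1 to 100, 101 to 200 nt and so on. Alternatives used sizes of 85 to 125 nt, each fragment once, a thinned longer library and windows of 10 kb. Share intervals are Wilson's and count intervals Poisson, at 95%. Windows over 5 times the median of either library were left out in an alternative. Named fragments were the 5 with the highest lower count of the libraries; named windows were the 5 highest in both and those with the 5 highest and 5 lowest shares among windows of at least 50 fragments. The members and lists were chosen with earlier results of these data known. Steps were tested on simulated data. The scripts ran under Python 3.11.15 with Numba 0.67.0, NumPy 2.4.6, pandas 2.3.3, SciPy 1.17.1 and Matplotlib 3.10.9.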

Additional observations from a re-analysis of the deposited data

How the results depend on the processing

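Of 53 alternatives over 12 results, 36 left the value within its interval (shares) or within the range over chromosomes (other values). The other 17 moved it. With a smooth of SD 10 nt the sizes of the shorter library had a period of 10.66 nt, and the middle 41 sizes, chosen after seeing the data, gave 10.37 nt there and 10.40 nt in the longer library. At those sizes the longer library had the longer period, the reverse of the order at 80 to 130 nt. The shared fragments were 3.25% of the shorter and 0.803% of the longer library at the middle 41 sizes, 3.22 and 0.796% without windows over 5 times the median, and 3.40 and 0.919% when weighted by copies. They were 0.902 and 0.898% with the longer library thinned size by size to the 2558524 fragments of the shorter library, which was kept whole. Weighting by copies moved the value at offset 0 to 12.6. Shared ends gave 3.24 with each fragment counted once, 3.37 without the high windows and, in alternatives chosen after seeing the data, 2.88 without shared fragments and 2.93 for 40 to 79 nt against 80 to 130 nt. Windows of 10 kb moved rho to 0.928. Division of the gap and of coverage by size class, and the spread without high windows (1.08 times binomial), were also chosen after seeing the data.

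No paired analysis was possible because each condition has 1 library and the labels give no replicate numbers. Spread between oocyte preparations is not covered by any interval. Where a library stops, at 130 nt for the shorter library, numbers are low and size ratios steep. Without a molecular identifier, copies and separate molecules with the same ends cannot be told apart.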
